A study of Arabidopsis thaliana with 12 samples.

Results

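DRT101 (AT5G18070) is an Arabidopsis thaliana gene whose transcript was represented on the array by 1 probe. It was found as the probe whose platform annotation names this gene and no other, 1 of 692 such single-gene probes among 3439 in all, and no further probe lists it. The gene was chosen by its intensities in bright and dim blue light, so those values are given as a description and carry no test. The 6 samples of the first group came from plants kept at 200 µE of blue light and the 6 of the second from plants at 20 µE, both for 48 h, where µE is common shorthand for the flux of photons. All 12 were total RNA of wild-type plants of the Landsberg ecotype. The labels name no tissue, age or number of plants per sample, and do not say whether the samples came from separate plants. Values are intensities in arbitrary units as deposited, here called units, and the table lists many of them as exactly 0.

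DRT101 takes its name from DNA-damage repair/toleration, after Arabidopsis sequences that raised the survival of repair-deficient Escherichia coli. Its protein belongs to the phosphohexomutase superfamily and acts as the phosphoacetylglucosamine mutase of the hexosamine pathway, which makes UDP-N-acetylglucosamine. That sugar nucleotide is the donor for N-glycans, for glycolipid anchors and for the attachment of N-acetylglucosamine to nuclear and cytosolic proteins. Blue light is read in plants by cryptochromes and phototropins, and it drives photosynthesis as well as the photolyases that repair UV damage.

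In bright blue light the DRT101 probe gave no listed signal at all, whereas in dim blue light it lay in the upper part of the array. Its intensity was 0, 0, 0, 0, 0 and 0 units in columns 1 to 6 at 200 µE, against 1.62, 1.75, 1.43, 1.57, 0.517 and 0.609 units in columns 1 to 6 at 20 µE. The groups did not overlap, with all 200 µE columns below all 20 µE columns, as for 290 of the 691 other single-gene probes (42.0%). The mean was 0 at 200 µE and 1.25 ± 0.54 units at 20 µE (SD, n = 6 each). Since one group is listed at 0 throughout, no fold is given. A listed 0 may stand for any level under what the authors' processing retained. The lowest value above 0 on the whole array lay between 2.8e-05 and 0.000425 units in the 200 µE columns, and the 5th percentile of the positive values there between 0.0218 and 0.0310 units.

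Ranks within a column do not depend on the scaling of that column. At 200 µE DRT101 shared the bottom place in each column with the other single-gene probes at 0. With DRT101 included these numbered 122, 119, 129, 135, 117 and 125 of 692 in columns 1 to 6. At 20 µE it ranked 70, 62, 105, 91, 281 and 226 from the top of the 692 probes. These ranks are percentiles of 90.0, 91.2, 84.9, 87.0, 59.5 and 67.4, with a mean of 80.0 ± 13.2 (SD, n = 6). The median single-gene probe measured 0.154 to 0.193 units at 200 µE and 0.406 to 0.564 units at 20 µE. DRT101 stood at 1.27 to 3.22 times that median in the 20 µE columns.

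**Figure D1:**
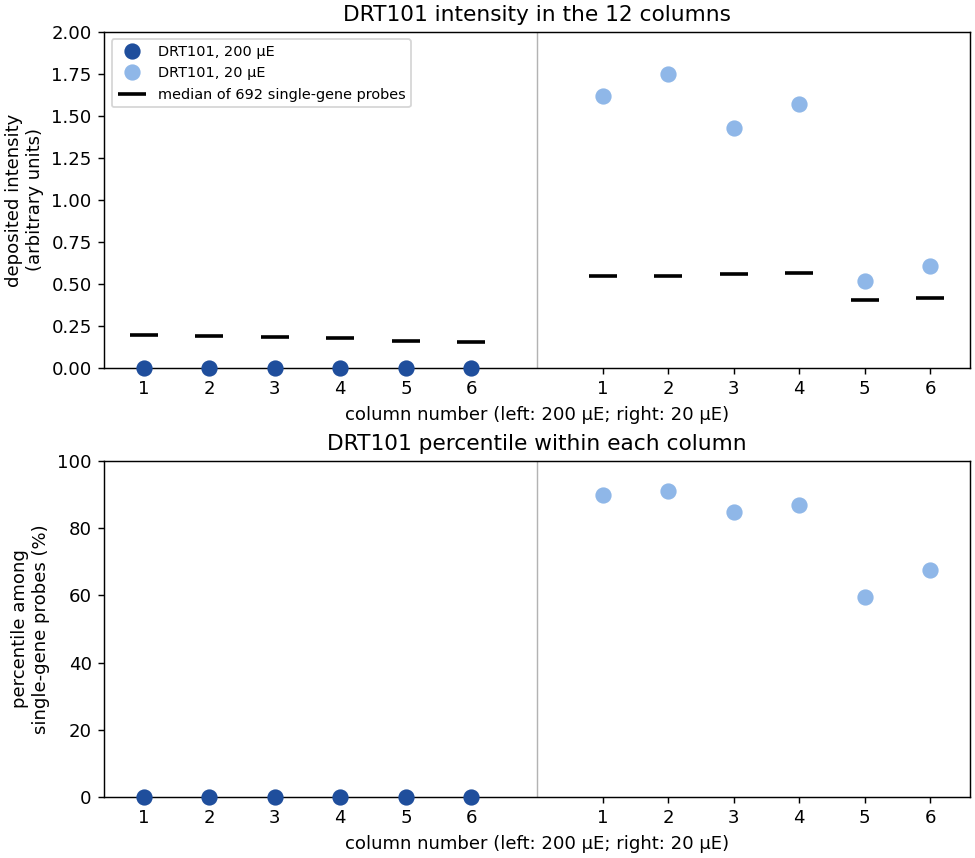
Deposited intensity of DRT101 (upper panel, arbitrary units) and its percentile among the 692 single-gene probes of the same column (lower panel, %) in columns 1 to 6 at 200 µE (dark points) and at 20 µE (light points), with the median single-gene probe as a black bar. DRT101 is at 0 in every 200 µE column, and at 20 µE it lies between 0.517 and 1.75 units, with columns 5 and 6 below the other 4.

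At 20 µE the 6 columns of DRT101 were not alike. Columns 1 to 4 averaged 1.59 ± 0.13 units (SD, n = 4), and columns 5 and 6 averaged 0.563 units. Across the array, neighbouring columns of each group (1 with 2, 3 with 4, 5 with 6) deviated together from the group mean. The labels do not say what such a couple shares. Within the 3 couples DRT101 differed by 7.85, 9.59 and 16.3% of the couple's mean, against 6.82, 6.82 and 10.6% for the median single-gene probe with signal in all 20 µE columns. With couples as units the mean at 20 µE was 1.25 ± 0.60 (SD, n = 3), against 0 at 200 µE.

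The ratio of columns 5 and 6 to columns 1 to 4 at 20 µE was 0.354 for DRT101. For the 573 single-gene probes with signal in all 20 µE columns the median ratio was 0.707, and the middle of the distribution ran from 0.521 to 1.03 (25th to 75th percentile). A ratio as low as that of DRT101 or lower was found for 45 of the 573 (7.85%). The low values of columns 5 and 6 also lowered the percentile of DRT101, so that they went beyond the dimness of these columns as a whole. Even there DRT101 stayed above the cut for clear signal used below, which was 0.269 units in column 5 and 0.265 units in column 6.

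The next question was how often other genes made the same change. Clear signal was taken as a value above the 25th percentile of a column's positive values, in every 20 µE column, and loss as exactly 0 in every 200 µE column. Of the 691 other single-gene probes, 2 met this (0.289%). They are AT2G46910 and AT1G72890. Among the probes that list several genes 2 of 870 met it (0.23%), and 5 of 1877 among those that the annotation does not list (0.266%). The opposite change, from 0 in every 20 µE column to clear signal in every 200 µE column, was met by 0 of the 691 probes (0.0%) and by 0 of the 3438 other probes of the table. Both counts describe the table and were not tested.

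AT2G46910 encodes a protein of the fibrillin family, which binds lipids in plastids. It was at 0 in columns 1 to 6 at 200 µE, against 0.938, 0.831, 0.749, 0.806, 1.20 and 1.20 units at 20 µE. Unlike DRT101 it was highest in columns 5 and 6, where its ratio to columns 1 to 4 was 1.44. AT1G72890, which encodes a protein with the TIR and nucleotide-binding domains of plant immune receptors, was at 0 at 200 µE, against 0.437, 0.512, 0.647, 0.624, 0.413 and 0.331 units at 20 µE. Its values at 20 µE thus lay at or below the level that DRT101 had in its dimmest columns, apart from columns 3 and 4. DRT101 had the highest mean at 20 µE of the 3.

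The count of 2 depends on what is called clear. With any value above 0 as signal, 12 of the 691 probes went to 0 in all 200 µE columns (1.74%). With the median of the positive values as the cut, which was 0.483 units in column 5 at 20 µE, DRT101 still met the rule and 1 other probe did (0.145%), AT2G46910. Without columns 3 and 4 of both groups, 5 other probes met the main rule. The 10 probes admitted by the loosest cut alone had means at 20 µE of 0.0865 to 0.542 units. The brightest of them was AT5G39980, which encodes a pentatricopeptide repeat protein, one of many in plants that bind RNA in chloroplasts or mitochondria. It missed the stricter cut in column 3, where it measured 0.339 units and the cut was 0.350 units. Tripeptidyl peptidase II, TPP2, was also among the 10, at 0 at 200 µE and at 0.122 ± 0.032 units at 20 µE (SD, n = 6).

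DRT101 was bright at 20 µE for a probe that went to 0. In order of mean intensity at 20 µE it stood 93rd of the 692 probes. None of the 92 probes above it was at 0 in any 200 µE column (0 of 92). The next single-gene probe down that was at 0 in all 200 µE columns was AT2G46910 at 0.954 units. The 573 probes above 0 in every 20 µE column were split into 10 groups of about equal size by their mean at 20 µE, and 13 of them, DRT101 included, were at 0 in all 200 µE columns. Of these 13, 11 were among the 286 probes of the 5 dimmer groups and 2 among the 287 of the 5 brighter ones, a description with no test. In the group that holds DRT101, with means of 1.14 to 1.64 units, 1 of 57 probes was at 0 throughout, DRT101 itself, and 0 were at 0 in some columns. Among all probes at 0 in every 200 µE column, 1 that the annotation does not list had a higher mean at 20 µE, 1.33 units.

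**Figure D2:**
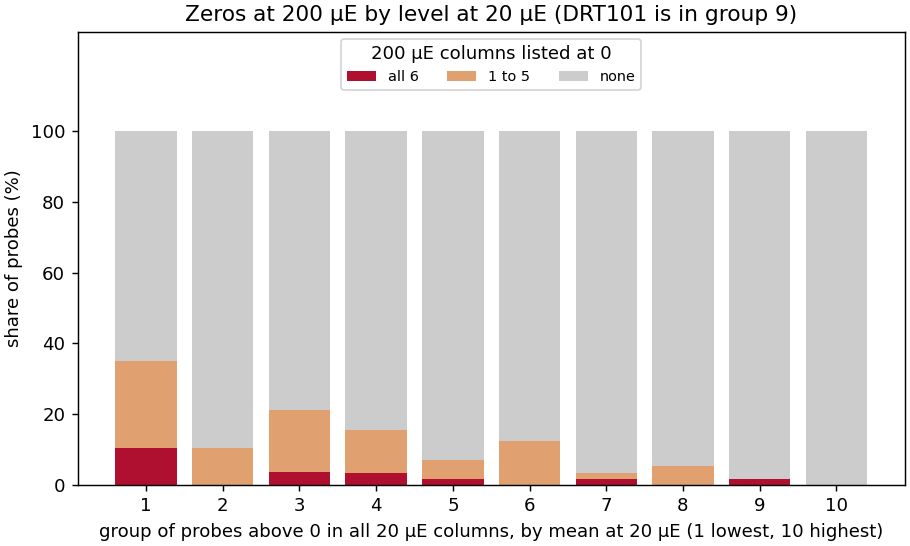
Share of single-gene probes (%) listed at 0 in all 6, in 1 to 5 or in none of the 200 µE columns, for 10 groups of the 573 probes above 0 in every 20 µE column, ordered by mean intensity at 20 µE. The lowest group holds 6 probes at 0 throughout, of 57, and the group with DRT101 holds 1, of 57.

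Among the 360 single-gene probes with clear signal in all 20 µE columns, DRT101 included, 342 (95.0%) were above 0 in every 200 µE column. Of the other 18 (5.0%), 7 had 1 column at 0, 4 had 2, 3 had 3, 1 had 5 and 3 had all 6. Among these 360 the ratio of the mean at 200 µE to that at 20 µE was under 0.1 for 36, and apart from the 3 probes at 0 the lowest ratio was 0.00965. Since the 360 were chosen by signal at 20 µE, how many dimmed is better read from other sets. The deposited mean was lower at 200 µE for 508 of all 692 single-gene probes (73.4%) and for 247 of the 345 with clear signal in all 200 µE columns (71.6%), a set chosen by the other group. The 200 µE columns were thus dimmer over most probes, and the part of this in the zeros of DRT101 was not tested. Column means over all probes spanned 0.814 to 1.04 units across both groups. How the columns were scaled is not given, so total signal cannot be compared between the groups, and its part was not tested.

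Probes at 0 in dim light were counted as well, a set chosen by its zeros and not by clear signal. Of the single-gene probes, 74 were at 0 in all 20 µE columns, and 50 of these were at 0 in all 200 µE columns too. Another 19 had a value above 0 in 1 column at 200 µE, 3 in 2 columns and 2 in 3 columns. None of the 74 was above 0 in more than 3 columns. The highest value reached by any of them at 200 µE was 2.66 units.

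**Figure D3:**
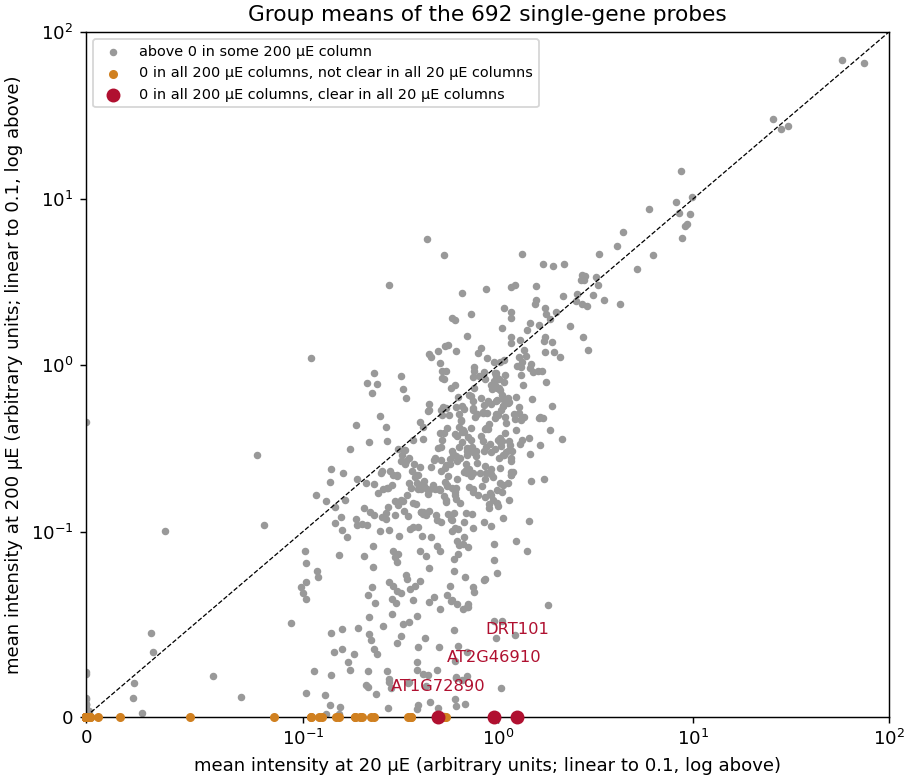
Mean intensity at 200 µE (vertical axis) against mean intensity at 20 µE (horizontal axis) for the 692 single-gene probes, in arbitrary units on axes that are linear up to 0.1 and logarithmic above; the dashed line marks equal means. DRT101, AT2G46910 and AT1G72890 lie on the lower edge at 1.25, 0.954 and 0.494 units at 20 µE, and most points lie below the line.

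The genes nearest to DRT101 in level at 20 µE kept signal at 200 µE. The 3 just above were AT4G17440, AT4G04370 and AT5G27860, with means of 0.559, 0.517 and 1.12 units at 200 µE, against 1.28, 1.27 and 1.27 units at 20 µE. AT4G04370 encodes another pentatricopeptide repeat protein, and its groups did not overlap. The groups of AT4G17440 and AT5G27860 overlapped. The 3 just below were AT1G13370, AT1G22700 and AT2G43760, with means of 0.992, 0.644 and 0.406 units at 200 µE, against 1.25, 1.24 and 1.23 units at 20 µE. AT1G13370 encodes a histone H3, AT1G22700 a protein needed to accumulate photosystem I, and AT2G43760 a subunit of the enzyme that makes molybdopterin. Only AT2G43760 of these 3 had groups without overlap. Among the 691 other single-gene probes, all 200 µE columns lay below all 20 µE columns for 290 (42.0%), and above them for 37 (5.35%).

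In pattern over the 12 columns, the probes most like DRT101 were those of AT4G33500, AT3G20490, AT5G25990, AT1G22850 and AT2G03200. Their Pearson correlations with DRT101 in deposited units were 0.997, 0.996, 0.994, 0.992 and 0.991. Such values were common: of 641 probes that varied, 159 (24.8%) had a correlation over 0.9, and the median was 0.73. The 12 points share the light groups and the couples of columns, so that a probe dim at 200 µE and dim in columns 5 and 6 at 20 µE comes close to DRT101. Over the 6 columns at 20 µE alone the 5 probes correlated with DRT101 at 0.992, 0.996, 0.979, 0.981 and 0.980. The 5 had been chosen by a correlation that includes these columns, so their high values here are not separate evidence of likeness. Correlations over 0.9 were common in the 20 µE columns too, and the median over the probes that varied there was 0.62. Over those columns AT2G46910 stood at -0.90 and AT1G72890 at 0.66.

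AT4G33500 encodes a protein phosphatase of type 2C. It measured 0.129, 0.0754, 0.0657, 0.0413, 0.0918 and 0.0615 units at 200 µE, against 1.27, 1.28, 1.19, 1.18, 0.462 and 0.555 units at 20 µE. Its low columns at 20 µE were the same as those of DRT101, but it kept a positive value in every 200 µE column. AT5G25990 came closest to DRT101 in bright light, being at 0 in columns 2 to 6 and at 0.000826 units in column 1 at 200 µE. At 20 µE it had 0.779, 0.753, 0.613, 0.599, 0.216 and 0.223 units, which left it under the cut for clear signal in columns 5 and 6. The other 3 ranged from 0.0479 to 0.321 units at 200 µE, against 0.313 to 1.94 units at 20 µE. They were AT3G20490, AT1G22850, of a family of SNARE-associated Golgi proteins, and AT2G03200, of the aspartyl proteases.

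**Figure D4:**
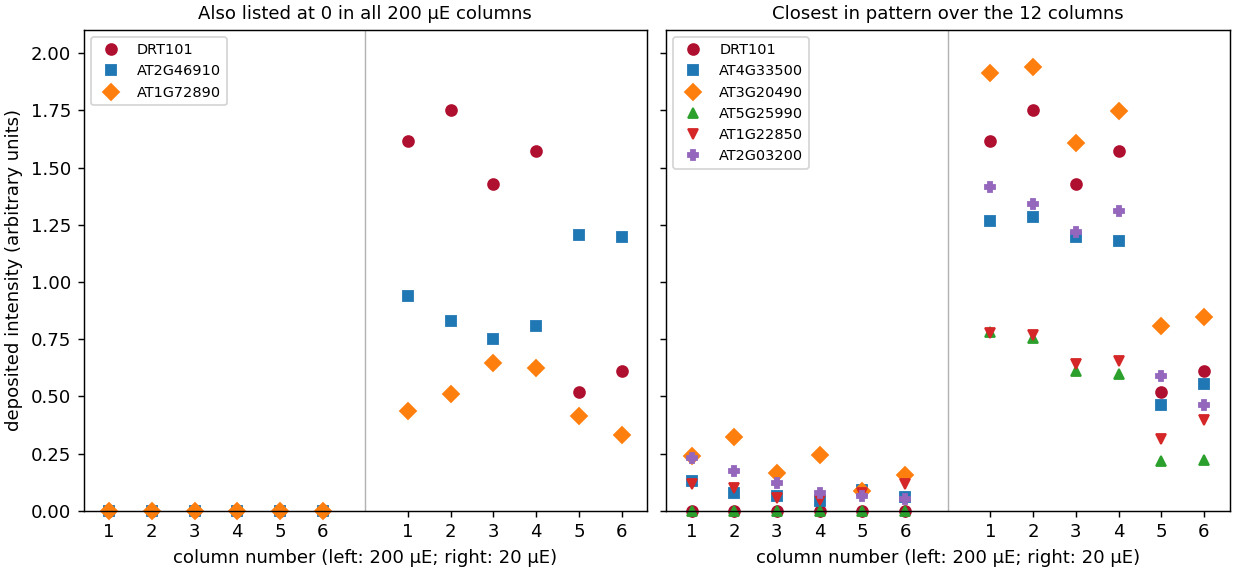
Deposited intensity (arbitrary units) in columns 1 to 6 at 200 µE (left of each panel) and at 20 µE (right of each panel) for DRT101 with the 2 other single-gene probes that met the rule (left panel) and with the 5 probes of highest Pearson correlation over the 12 columns (right panel). AT2G46910 is highest at 20 µE in columns 5 and 6, where DRT101 and the 5 correlated probes are lowest.

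Few genes of the lists of related function, which are not exhaustive, had a probe of their own. Of the 5 listed genes of UDP-N-acetylglucosamine synthesis and the 7 phosphohexomutases, DRT101 alone did, and of 7 listed genes that use the sugar nucleotide none did. One probe was shared by 2 members of the phosphohexomutase list, so that no gene can be named from it. It measured 0.0153, 0.0583, 0, 0, 0.0314 and 0.0824 units at 200 µE, against 0.230, 0.251, 0.459, 0.360, 0.136 and 0.10 units at 20 µE. The groups did not overlap in deposited units, as for 42.0% of the single-gene probes other than DRT101. The share among probes of several genes was not counted. Its log2 change, 200 µE minus 20 µE after quantile normalisation, was -1.23 ± 0.72 (SE) and did not pass (limma, adjusted p = 0.19). Nor did it pass with same-numbered columns paired in a block or over couple means (limma, adjusted p = 0.32 and 0.44). It passed without normalisation, at -3.42 (limma, adjusted p = 0.00045), as did 74.8% of the tested features. Under median centring it passed at -2.07 (limma, adjusted p = 0.015), as did 68.4%. In both settings DRT100, listed at 0 in all 12 columns, passed as well, at -2.39 and -1.03. A pass in these settings thus does not by itself show a change, and those of the shared probe are not read as one. The shared probe was at 0 in only 2 of the 12 columns, and the part of its zeros in these passes was not tested. Single couples decided the value of the shared probe too. Its change was 0.13 without columns 3 and 4 of both groups (limma, adjusted p = 0.93). Without columns 5 and 6 it was -2.35 (limma, adjusted p = 0.026), in a fit where 858 of 1561 features passed.

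Of the 5 DRT genes, DRT100, which encodes a leucine-rich repeat protein, was the only other with its own probe, and it was listed at 0 in all 12 columns. Of 45 listed DNA repair genes 2 had one. DME, a DNA glycosylase that removes methylated cytosine, was at 0 in all 12 columns. OSB1, a single-stranded DNA-binding protein that limits recombination of mitochondrial DNA, measured 0.297, 0.313, 0.394, 0.391, 0.282 and 0.219 units at 200 µE, against 0.553, 0.567, 0.426, 0.452, 0.526 and 0.414 units at 20 µE. Its deposited values at 200 µE were all below those at 20 µE, as for 42.0% of the other single-gene probes. The other 43 listed repair genes, photolyases among them, and the 5 listed blue and UV-B photoreceptors had no probe naming them alone.

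The direction for OSB1 depended on the scaling. After quantile normalisation its log2 change was 0.58 ± 0.17 (SE; limma, adjusted p = 0.016), higher at 200 µE. Under median centring it was 0.71 (limma, adjusted p = 0.0031). Without normalisation it was -0.65 (limma, adjusted p = 0.0050), so no direction is given. The call was lost when same-numbered columns were paired in a block (limma, adjusted p = 0.057) and over the means of the 3 couples per group (limma, adjusted p = 0.15). It was also lost when columns 1 and 2, or 3 and 4, of both groups were left out (limma, adjusted p = 0.073 and 0.17). Such calls were frequent. They covered 768 of 1561 tested features (49.2%), of which 361 were higher (23.1% of the features) and 407 lower (26.1%) at 200 µE. They covered 53.7% with the block, 21.1% over couple means and 68.4% under median centring. Without normalisation 1168 passed (74.8%), of which 113 were higher (7.24%). The shares under median centring and without normalisation include probes at 0 in all 12 columns. DRT100 passed there at -1.03 and -2.39 (limma, adjusted p = 0.00015 and 2.3e-06), so these shares overstate how often signal changed. Its zeros had been replaced by each column's own 1st percentile of positive values. That percentile averaged 0.00595 units at 200 µE and 0.0315 units at 20 µE.

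The samples had the transcripts of green tissue. All 6 of the 8 listed photosynthesis genes with a probe of their own, among them the antenna gene LHB1B2 and the photosystem II subunit PSBW, were above 0 in all 12 columns. Their summed level was 67.9 to 94.1 units at 200 µE and 51.7 to 85.1 units at 20 µE. PSBW made up most of it, at 56.5 to 81.7 units at 200 µE and 39.1 to 68.6 units at 20 µE. No listed root or seed gene had a probe of its own, so other tissues were not assessed. In total RNA, fewer cells with a transcript and less of it per cell cannot be told apart. Column medians over all 3439 probes were 0.171 to 0.218 units at 200 µE and 0.401 to 0.574 units at 20 µE, and 16.5 to 18.3% of values were 0 at 200 µE, against 12.4 to 14.3% at 20 µE.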

How the data were processed

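Arrays were hybridised with total RNA of 12 samples, 6 from bright and 6 from dim blue light. The authors' deposited values are linear intensities. How they were background-corrected and scaled is not given in the sources used here. The number of arrays limits the precision, and p-values measure a spread between samples that may be technical. Group and replicate number came from the sample titles, and genes from the platform annotation, joined to the TAIR10.1 gene table (690 of 692 identifiers found).

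Levels, ranks and counts of zeros were taken from deposited values. For limma 3.58.1 in R 4.3.3, values of 0 were replaced by the 1st percentile of the column's positive values, log2 values were quantile-normalised over 3439 probes, and 1561 features (691 genes and 870 probes of several genes) were tested without a block, with Benjamini-Hochberg adjustment at 0.05. Same-numbered columns of the groups deviated together (correlations 0.154 to 0.503), and were therefore treated as paired in the block. Correlations within couples were 0.157 to 0.755, against at most 0.104 between couples.

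The gene, the lists and the rules were chosen with earlier results of these data known. Named were DRT101, up to 10 genes with the same or the opposite change, the 5 most correlated, 3 neighbours in level on each side, and listed genes with their own probe. AT5G39980, AT4G05070 and TPP2 were named after their values were seen. So were AT1G62760, AT1G07040, AT3G17950, AT3G09850 and AT5G05330, named for their neighbouring probe numbers. Other cuts, normalisations, filters, a pseudocount of 0.0138 and omission of columns were tried. No sequences or coordinates were used here.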

Additional observations from a re-analysis of the deposited data

Results flagged for a closer look

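In 49 sets of 6 columns of the named genes, 3 held a column set apart from the other 5 by Dixon's criterion. Chance gives about 2.45 (1 in 20) for independent, normally spread columns, whereas these columns deviated in couples. AT5G25990 measured 0.000826 units in column 1 at 200 µE. Its other 5 columns were at 0, so that any positive value would have been flagged. AT1G22700 measured 0.239 units in column 1 at 200 µE, and the others lay between 0.612 and 0.832 units. AT2G43760 measured 0.648 units in column 6 at 20 µE, against 1.25 to 1.51 units in the others. No value of DRT101 stood apart in this way.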

How the results depend on the processing

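The mean of DRT101 at 20 µE, 1.25 units, lay between 1.15 and 1.40 units when single columns were left out, and its mean percentile of 80.0 between 77.8 and 84.1. The count of 2 other single-gene probes with the same change became 12 with any value above 0 as signal, 1 with the median as the cut and 5 without columns 3 and 4 of both groups. It was 2 to 3 without single replicate numbers, and 3 when 1 of the 6 columns at 200 µE could be above 0, which admitted AT4G05070 (0.678 units at 20 µE on average, and 0.0417 units in column 5 at 200 µE). The opposite change had 0 single-gene probes under each of the 8 alternatives run. With any value above 0 as signal, 2 of the 1877 probes that the annotation does not list made it (0.107%). Of 1561 features, 768 passed (limma), 714 to 802 without single columns and 839 with the replicate block. Over couple means 329 passed, 243 in blocks of couples, and 380 without features at 0 throughout. Without normalisation 1168 passed, among them probes at 0 in all 12 columns such as DRT100. Of the listed repair and hexosamine genes other than DRT101, only OSB1 had values above 0, so the count was 1 of 1. It was 1 in all 12 fits without a single column. It was 0 with the replicate block, over couple means, over couple means in blocks of couples or without features at 0 throughout, and when columns 1 and 2, or 3 and 4, were left out (limma, adjusted p of 0.057, 0.15, 0.26, 0.20, 0.073 and 0.17). The log2 change of OSB1, 0.58, became 0.71 under median centring and -0.65 without normalisation, and the cause was not tested. Leaving out couples, and couple means with a block or without features at 0, were added after the data had been seen. Values near 0 limit what can be read: a listed 0 gives no level.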

Other observations

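The probes carry numbers, and the sources used here do not say whether these follow positions on the array. The nearest probe numbers present in the data lay 3 below and 1 above that of DRT101. Both of these probes kept signal, at 0.345 to 1.16 units and 5.36 to 6.96 units at 200 µE. At 20 µE they measured 0.503 to 1.31 units and 3.80 to 6.0 units. Of the 13 single-gene probes above 0 in every 20 µE column and at 0 in every 200 µE column, 5 had a directly neighbouring number in the same set. These were AT1G62760, AT1G07040 and AT3G17950, which follow each other, and AT3G09850 and AT5G05330. Within the first run the 3 probes shared high columns 3 and 4 at 20 µE: AT1G07040 had 0.992 and 1.02 units there, against 0.234 to 0.349 units in its other columns at 20 µE. Among all such probes of the series, 11 of 47 had a directly neighbouring number in the set, and DRT101 did not. For DRT101 only the number above is present in the data, so such a neighbour was possible on 1 side alone. These values were looked at after the results were known, and the part of probe numbering in them was not tested. How often other probes have a directly neighbouring number, or share a pattern with it, was not counted. No clustering is therefore read from these counts.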
